A study of Mus musculus with 4 samples.

Results

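The Lin28, Igf2bp and let-7 axis is a group of RNA-binding, RNA-degrading and chromatin genes that are linked by the let-7 family of microRNAs. It was set out as 9 genes: Lin28a, Lin28b, Igf2bp1, Igf2bp2, Igf2bp3, Hmga1, Hmga2, Trim71 and Dis3l2. They were taken from a microarray table of log2 expression by keeping probe sets whose platform annotation gives exactly 1 symbol and 1 probe set for each gene, chosen by the highest mean log2 value over the 4 arrays. This found 7 of the 9 genes, among 19938 genes in all. Igf2bp2 and Hmga1 were named by no such probe set and are not analysed here. Only Igf2bp1 had a further probe set.

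The arrays, Affymetrix MoGene 1.0 ST, compared 2 samples of Kdm2b knockdown cells with 2 samples of control cells. Both groups were E14 mouse embryonic stem cells, a cultured line of the inbred 129 strain, grown on gelatin in medium that held 15% serum and leukemia inhibitory factor at 1000 units/ml. Both received lentivirus at 10 MOI and were selected with puromycin at 2 µg/ml from 48 h after transduction, so viral infection and drug selection were shared by the knockdown and the control. The labels do not describe what the control vector carried, and whether the replicates were grown as separate cultures is not stated. The p-values therefore measure the spread between these samples only, and it may be technical. Kdm2b is a histone demethylase that binds unmethylated CpG-rich DNA and brings a variant of Polycomb repressive complex 1 to it, and the series asks how its loss alters gene expression in stem cells.

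Lin28a and Lin28b bind the precursors of let-7 and block their maturation. Lin28a does so partly by recruiting the terminal uridylyltransferases Tut4 and Tut7, whose uridine tail marks the precursor for the exonuclease Dis3l2. Mature let-7 in turn represses many mRNAs of early development, among them those of Lin28b, Igf2bp1, Igf2bp3, Hmga2 and Trim71. Embryonic stem cells are known for high Lin28a and low mature let-7, and let-7 rises as they differentiate.

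All members of the let-7 family pair with target mRNAs through the same seed. The mature 5′ sequences from the RefSeq microRNA table (build GRCm38.p6) are shown with bases 2 to 8, the seed, in capitals, since it is the stretch the family shares. The 9 distinct sequences had 1 seed, and 5 of them are given.
mmu-let-7a-5p: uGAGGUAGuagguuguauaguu
mmu-let-7d-5p: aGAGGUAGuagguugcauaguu
mmu-let-7e-5p: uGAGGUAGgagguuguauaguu
mmu-let-7g-5p: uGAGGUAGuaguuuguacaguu
mmu-miR-98-5p: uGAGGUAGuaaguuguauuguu

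The zinc knuckles of Lin28 proteins are known to recognise the letters GGAG in the precursor loop. These letters were found in 9 of the 12 let-7 family hairpins in the table, on the strand of the RNA, against 44.5% of all 1005 mouse hairpins. They were absent from the hairpins of Mirlet7b, Mirlet7c-2 and Mir98. A match is a description of the letters and not a binding site. The hairpins of Mirlet7g (chr9:106178840-106178927, plus strand) and Mirlet7d (chr13:48536012-48536114, minus strand), which hold GGAG, and of Mir98 (chrX:151913214-151913321, plus strand), which does not, are given with GGAG in capitals to show the difference.
Mirlet7g: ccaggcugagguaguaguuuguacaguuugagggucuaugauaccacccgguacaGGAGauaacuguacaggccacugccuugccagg
Mirlet7d: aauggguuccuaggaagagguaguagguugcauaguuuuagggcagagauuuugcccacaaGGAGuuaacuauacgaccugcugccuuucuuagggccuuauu
Mir98: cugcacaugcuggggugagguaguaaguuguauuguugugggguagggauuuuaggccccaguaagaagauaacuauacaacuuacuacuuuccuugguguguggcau

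The median of all probe sets was 8.55 and 8.53 on the knockdown arrays, against 8.49 and 8.51 on the control arrays. Kdm2b, the targeted gene, had log2 values of 9.20 and 9.19 in knockdown cells, against 10.74 and 10.64 in control cells, and was 2.82-fold lower (adjusted p = 0.0039, limma). Of the 19938 genes tested, 12.2% passed an adjusted p of 0.05 in limma, 5.00% higher and 7.19% lower after knockdown. These shares are the background for every count below, and a gene is called higher or lower only where it passed that threshold. When genes with a mean at or under 8.52 were removed as dim, 21.96% of the 11516 left passed. A list of mostly brighter genes is better set beside that share.

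Among the 7 measured genes, Lin28a was lower after Kdm2b knockdown, 0 were higher and 6 passed the threshold in neither direction. The 1 call of 7, or 14.3%, is near the 12.2% of all genes and below the 21.96% with dim genes removed. The median log2 fold change was -0.045 over the 7 genes and 0.03 over all genes. At an unadjusted p under 0.05, 2 of the 7 passed, Lin28a downward and Hmga2 upward. All 7 lay above the median level of the probe sets on the array, so a filter on dim genes removed 0 of them.

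Lin28a had log2 values of 11.15 and 11.37 in knockdown cells, against 12.20 and 12.12 in control cells. Both knockdown arrays lay below both control arrays, with a gap far wider than the distance between replicates. The mean was 11.26 ± 0.156 in knockdown cells and 12.16 ± 0.0566 in control cells (SD, n = 2 each). The log2 fold change was -0.90 (SE 0.09, 95% interval -1.12 to -0.68, adjusted p = 0.0071, limma), a level 1.87-fold lower. It was the 120th most negative change of the 19938 genes. In bulk RNA, fewer cells that express the gene and less RNA per cell cannot be told apart.

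Lin28b, the paralog of Lin28a that also blocks let-7 maturation, did not pass the threshold. Its log2 values were 8.99 and 9.23 in knockdown cells, against 9.08 and 9.16 in control cells. The control values lay between those of the knockdown, so the groups overlapped. The log2 fold change was -0.01 (95% interval -0.24 to 0.22, adjusted p = 0.96, limma), which leaves room for a change of that size in either direction. The change of Lin28a minus that of Lin28b, taken within arrays, was -0.89 log2 units. The values behind it did not overlap between groups (exact two-sided permutation p = 0.333, the smallest that 2 against 2 arrays allow). The same held against each of the 6 other measured genes, from -1.29 for Hmga2 to -0.825 for Dis3l2. The gap of Lin28a itself enters every such difference, so the test says little about the other gene.

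**Figure D1:**
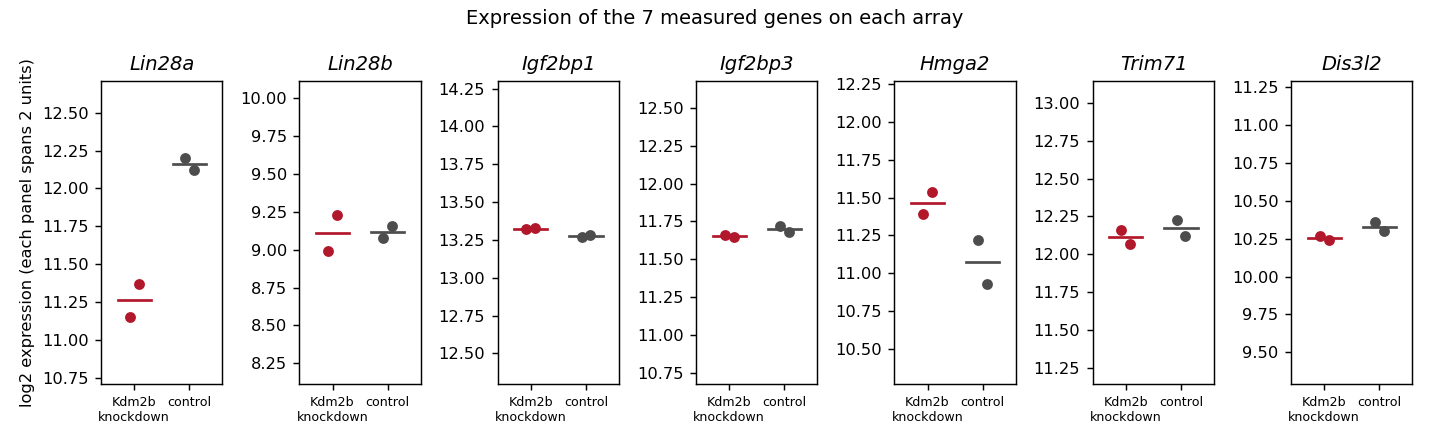
Log2 expression of the 7 measured genes on each array (points; red, Kdm2b knockdown; grey, control; lines, means of n = 2). Every panel spans the same 2 log2 units, and the gap between groups is widest for Lin28a, with knockdown arrays at 11.15 and 11.37 and control arrays at 12.20 and 12.12.

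The Igf2bp genes encode RNA-binding proteins that stabilise and localise mRNAs in fetal and cancer cells. Igf2bp1 had log2 values of 13.32 and 13.33 in knockdown cells, against 13.27 and 13.28 in control cells. The groups were separate but only by 0.05 on the log2 scale, and the change did not pass (95% interval -0.10 to 0.20, adjusted p = 0.62, limma). Its further probe set, which the rule left aside because its mean was lower (11.19 against 13.30), had 11.13 and 11.16 in knockdown cells, against 11.32 and 11.15 in control cells. That is a difference of -0.09, opposite in sign to the brighter probe set, so the direction for Igf2bp1 is not settled.

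Igf2bp3, a paralog of Igf2bp1, had log2 values of 11.66 and 11.65 in knockdown cells, against 11.72 and 11.68 in control cells. The knockdown arrays were lower by a small margin. The log2 fold change of -0.045 did not pass the threshold (95% interval -0.19 to 0.10, adjusted p = 0.66, limma). For the kept probe sets of both Igf2bp genes the interval excludes a change as large as that of Lin28a. Those intervals reflect the spread between these samples only.

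Hmga2 encodes an architectural chromatin protein that binds AT-rich DNA, and its mRNA is among the best known let-7 targets. Its log2 values were 11.39 and 11.54 in knockdown cells, against 11.22 and 10.93 in control cells. Both knockdown arrays lay above both control arrays, although the control arrays also stood apart from each other (SD 0.205, the widest of the 7 genes). The log2 fold change was 0.39 (SE 0.11, 95% interval 0.11 to 0.67), with an adjusted p of 0.078 in limma that missed the threshold, and it was 0.245 without control replicate 2. Its sign was opposite to that of Lin28a. The change of Lin28a minus that of Hmga2 was -1.29 log2 units (exact two-sided permutation p = 0.333, the smallest possible). The gap of Lin28a itself enters this difference, so the test says little about Hmga2.

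Trim71, the mouse ortholog of the worm gene lin-41, encodes a ubiquitin ligase and mRNA repressor of stem cells. It had log2 values of 12.16 and 12.07 in knockdown cells, against 12.23 and 12.12 in control cells. The groups overlapped, and the log2 fold change of -0.06 did not pass the threshold (95% interval -0.24 to 0.12, adjusted p = 0.62, limma).

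Dis3l2, the exonuclease that degrades uridylated let-7 precursors, had log2 values of 10.27 and 10.24 in knockdown cells, against 10.36 and 10.30 in control cells. The knockdown arrays were slightly lower, and the log2 fold change of -0.075 did not pass (95% interval -0.23 to 0.08, adjusted p = 0.47, limma). For 5 of the 7 genes the groups were separate on the arrays, which is 71.4% beside 58.8% of all genes. In 2 of them the knockdown lay above the control (33.8% of all genes) and in 3 below it (25.0% of all genes).

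**Figure D2:**
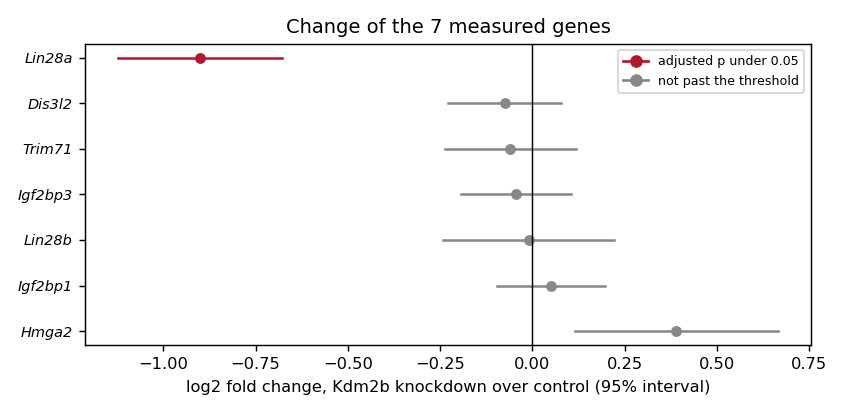
Log2 fold change of knockdown over control for the 7 measured genes, with limma's 95% interval for each gene (not adjusted for the number of genes). Lin28a lies at -0.90 and is past the adjusted threshold. Hmga2 lies at 0.39 with an interval above 0 but an adjusted p of 0.078, and the other 5 intervals include 0.

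**Figure D3:**
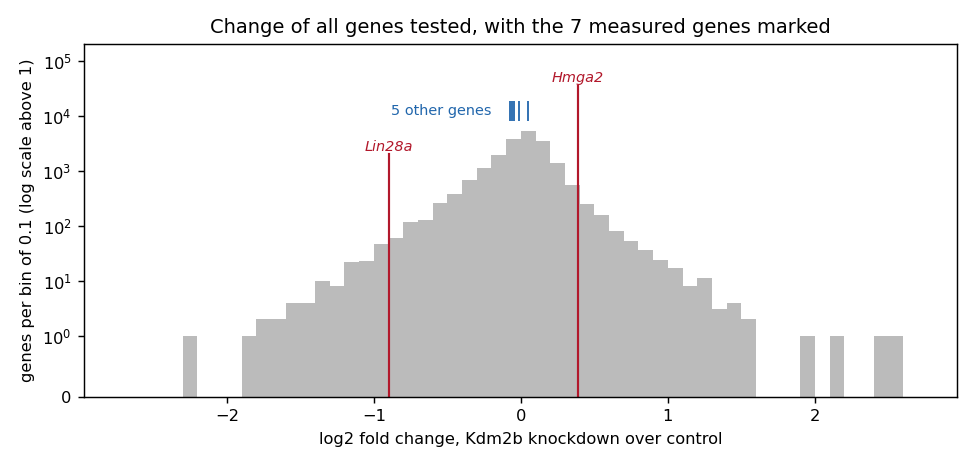
Distribution of log2 fold changes, knockdown over control, of all 19938 genes in bins of 0.1 (grey bars, count on a log scale above 1). Lin28a (-0.90) lies in the lower tail and Hmga2 (0.39) on the upper shoulder, while the other 5 genes (blue marks) lie within 0.075 of 0.

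The calls rest on all 4 arrays. When 1 array was dropped, whichever it was, 0 genes passed an adjusted p of 0.05 in limma (3495 to 4215 at an unadjusted p under 0.05), and Lin28a then had a log2 fold change of -1.01 to -0.79 with an adjusted p of 0.196 to 0.258. The same held with the replicate number as a block, where the adjusted p of Lin28a was 0.127.

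The 3 genes whose deviations from their own mean over the 4 arrays were closest to those of Lin28a, by Euclidean distance in log2 units, were Kcnt2 (0.0548), a potassium channel gene, Nrg4 (0.0572), a neuregulin, and Acap1 (0.0654), a GTPase-activating protein of the Arf family. Their log2 fold changes were -0.92, -0.895 and -0.905, and all 3 passed the threshold. With 4 arrays such likeness describes the values only.

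The promoter of Lin28a was examined because Kdm2b binds CpG-rich DNA. The 250 bases upstream of the start given in the RefSeq promoter table (GRCm38.p6, chr4:134018817-134019066, minus strand) held 7 CG dinucleotides, shown in capitals, a number reached by 46.3% of all 32851 promoter windows of this length (the motif CG reads the same on both strands).
Lin28a: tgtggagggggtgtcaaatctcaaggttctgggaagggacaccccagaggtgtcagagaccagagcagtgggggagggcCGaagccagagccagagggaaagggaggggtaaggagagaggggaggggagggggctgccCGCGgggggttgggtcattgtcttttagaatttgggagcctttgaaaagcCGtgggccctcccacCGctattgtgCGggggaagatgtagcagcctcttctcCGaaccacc
Of the other measured genes with a promoter in the table, Dis3l2 had 24 CG in its window, Igf2bp3 21, Trim71 17, Hmga2 8 and Lin28b 6, where the median of all windows was 6. The windows of Lin28a, Lin28b, Igf2bp3 and Dis3l2 lie within the bounds of the annotated gene, so other starts of these genes may lie further upstream. Binding of Kdm2b was not measured in these data.

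The let-7 family itself was read by 10 probe sets with 1 symbol, of 12 precursors listed. They lay at low levels, with mean log2 values of 5.395 to 8.5975, and 9 of the 10 were below the median of all probe sets. Whether these probe sets read primary transcripts, precursors or mature microRNA is not given in the sources used here. In limma 0 of the 10 passed the threshold, with 2 at an unadjusted p under 0.05, and the log2 fold changes ran from -0.25 to 0.265 with a median of 0.035.

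Mirlet7a-1 had log2 values of 7.32 and 7.10 in knockdown cells, against 6.95 and 6.94 in control cells (log2 fold change 0.265, adjusted p = 0.11, limma), and the log2 fold change was 0.155 without knockdown replicate 1. Mirlet7f-1, its neighbour on chromosome 13, had 5.51 and 5.44 in knockdown cells, against 5.67 and 5.78 in control cells (log2 fold change -0.25, adjusted p = 0.075, limma). These neighbours thus had opposite signs, each with separate groups. Mirlet7f-1 passed the threshold with the arrays centred on their medians (adjusted p = 0.041) and after quantile normalization (0.047).

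Mirlet7d, the further member of that cluster, had 8.24 and 7.99 in knockdown cells, against 8.60 and 8.11 in control cells, and its groups overlapped. Mirlet7g, whose hairpin is printed above, had 7.02 and 6.87 in knockdown cells, against 7.03 and 6.96 in control cells. Mir98, whose hairpin lacks GGAG, had 6.71 and 7.03 in knockdown cells, against 6.46 and 6.79 in control cells. The groups overlapped for all 3. Mirlet7i had 8.52 and 8.34 in knockdown cells, against 8.33 and 8.29 in control cells, which were barely separate.

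**Figure D4:**
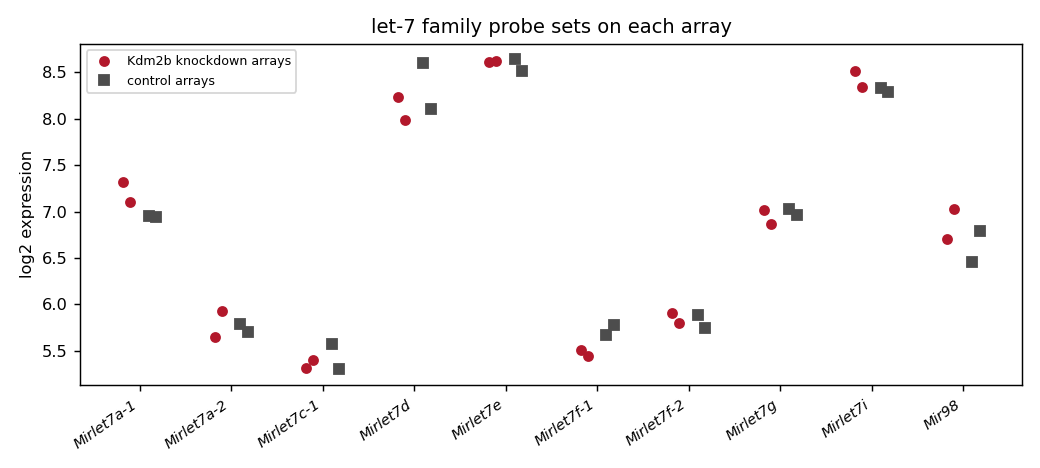
Log2 expression of the 10 let-7 family probe sets on each array (red circles, Kdm2b knockdown; grey squares, control). Values run from 5.30 to 8.64. The groups overlap for 7 of the 10, whereas they are separate for 58.8% of all genes.

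RefSeq places the hairpin of Mirlet7g within the gene Wdr82, and those of Mirlet7f-2 and Mir98 within Huwe1. Wdr82, a subunit of histone H3K4 methyltransferase complexes, had log2 values of 12.71 and 12.77 in knockdown cells, against 13.27 and 13.15 in control cells, and fell by 0.47 in log2 units (SE 0.071, adjusted p = 0.016, limma). Huwe1, a ubiquitin ligase, had a log2 fold change of -0.08 and did not pass. With the let-7 precursors, 13 genes of this list were measured, of which 0 were higher, 1 lower and 12 neither in limma (1 higher and 2 lower at an unadjusted p under 0.05). That is 7.69% called and 23.1% unadjusted, beside 12.2% and 29.8% of all genes. Of the 13, 10 were dim.

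Of 26 measured genes of microRNA processing and let-7 turnover, 0 were higher, 1 was lower and 25 neither in limma. That is 3.85% called, beside 12.2% of all genes and 21.96% of those left with dim genes removed. The median log2 fold change was -0.0425. At an unadjusted p under 0.05 there were 8 of the 26, or 30.8%. The share was 29.8% of all genes and 38.9% of those left with dim genes removed. With the arrays centred on their medians, or with an intensity trend in the prior, 3 of the 26 were called lower. The gene that fell was Xrn1, the cytoplasmic 5′ to 3′ exonuclease, with 10.58 and 10.55 in knockdown cells, against 11.33 and 11.28 in control cells (log2 fold change -0.74, SE 0.062, adjusted p = 0.0056, limma).

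The uridylyltransferase gene Tut4, also known as Zcchc11, had log2 values of 11.79 and 11.71 in knockdown cells, against 12.03 and 11.98 in control cells. Its groups were separate, and the log2 fold change of -0.255 had an adjusted p of 0.06 in limma. It passed with the arrays centred on their medians (0.037), with dim genes removed (0.041) and with an intensity trend in the prior (0.041). Tut7, also known as Zcchc6, which has the same activity, had 10.61 and 10.35 in knockdown cells, against 10.24 and 10.36 in control cells, and a log2 fold change of 0.18 (adjusted p = 0.3, limma). Leaving out an array of knockdown cells gave 0.05 (replicate 1 left out) or 0.31 (replicate 2 left out).

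Dicer1, which cuts let-7 precursors to the mature form and whose own mRNA is a reported let-7 target, had 12.0 and 11.95 in knockdown cells, against 12.19 and 12.19 in control cells. Its log2 fold change of -0.215 had an adjusted p of 0.076 in limma, and it passed with the arrays centred on their medians (0.048) and with an intensity trend in the prior (0.046). Drosha and Dgcr8, which form the nuclear Microprocessor complex, had log2 fold changes of -0.015 and 0.07 and did not pass.

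Genes reported in mammals as let-7 targets, outside the 9 listed genes, changed in both directions. Of 33 measured, 3 were higher, 9 lower and 21 neither, which is 36.4% called, beside 12.2% of all genes. That background is low for this list, since 31 of the 33 passed the filter on dim genes. With dim genes removed, 3 targets were higher and 8 lower, and 21.96% of all genes left were called. At an unadjusted p under 0.05 in limma there were 15 of the 33, or 45.5%. The share was 29.8% of all genes and 38.9% of those left with dim genes removed. The median log2 fold change was -0.02, with 15 positive and 18 negative values. The list was written with results for some of its genes already known, so its share is a description.

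Ccnd2, a D-type cyclin, had log2 values of 11.75 and 11.84 in knockdown cells, against 10.63 and 10.65 in control cells, and rose by 1.155 in log2 units (SE 0.065, adjusted p = 0.0049, limma). Myc, the proliferation-linked transcription factor, had 12.67 and 12.90 in knockdown cells, against 11.57 and 11.95 in control cells (log2 fold change 1.025, SE 0.14, adjusted p = 0.014, limma). Ccnd1, a further D-type cyclin, rose by 0.375. The paralog Mycn, with 12.17 and 12.17 in knockdown cells, against 12.11 and 12.12 in control cells, did not pass (adjusted p = 0.58, limma).

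Prtg, which encodes the neural immunoglobulin-family protein protogenin, had log2 values of 9.09 and 9.25 in knockdown cells, against 10.28 and 10.04 in control cells. It fell by 0.99 in log2 units (SE 0.1, adjusted p = 0.0075, limma). Plag1, a zinc finger transcription factor of fetal growth, fell by 0.74 and the kinase gene Map4k4 by 0.67. The other 6 that fell, named after their values were seen, were Fign, Hic2, Insr, Bach1, Nras and Tgfbr1, with log2 fold changes of -0.595 to -0.38. For all 12 called genes the knockdown and control arrays were separate, as they were for 58.8% of all genes. With 2 arrays in each group a call all but requires this, so it adds no support.

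**Figure D5:**
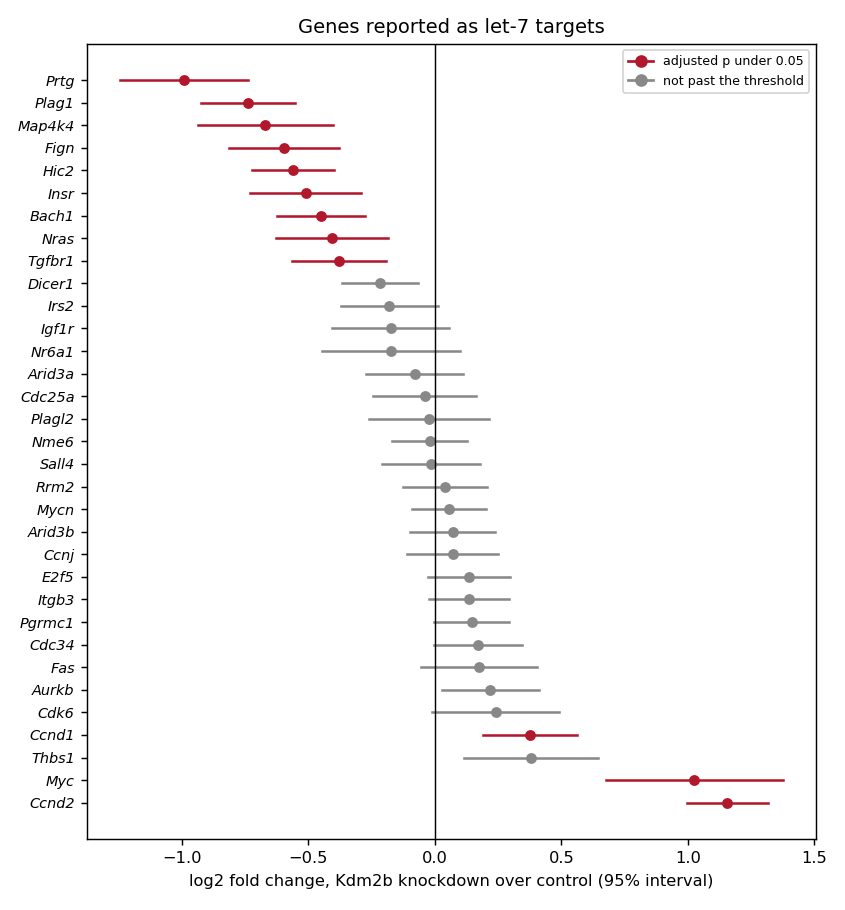
Log2 fold change of knockdown over control for the 33 measured genes reported as let-7 targets, with limma's 95% interval for each gene (red, adjusted p under 0.05; grey, not past the threshold). The changes run from -0.99 (Prtg) to 1.155 (Ccnd2), with 9 lower and 3 higher genes past the threshold.

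Among mRNAs reported as bound by Lin28 or Igf2bp proteins, 13 were measured, of which 2 were higher, 0 lower and 11 neither in limma (3 higher and 0 lower at an unadjusted p under 0.05). That is 15.4% called, beside 12.2% of all genes and 21.96% of those left with dim genes removed. Unadjusted, it is 23.1%, beside 29.8% and 38.9%. The 2 were Ccnd2 and Myc, already given. Igf2, the growth factor whose mRNA gave the Igf2bp proteins their name, had 9.95 and 10.38 in knockdown cells, against 9.67 and 9.74 in control cells, and its log2 fold change of 0.46 did not pass (adjusted p = 0.089, limma). Without knockdown replicate 2 it was 0.245.

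Among 21 measured genes listed as relatives by a shared domain or only a shared name, 2 were higher, 1 lower and 18 neither. That is 14.3% called, beside 12.2% of all genes and 21.96% of those left with dim genes removed. Carhsp1, which shares the cold-shock domain of Lin28 proteins, rose by 0.505 (SE 0.079, adjusted p = 0.017, limma). The nucleosome-binding protein gene Hmgn2 rose by 0.31, and its relative Hmgn5 fell by 0.775 on the log2 scale, with 10.54 and 10.45 in knockdown cells, against 11.18 and 11.36 in control cells.

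Some markers of other cell states changed beside Lin28a. Of 11 embryonic stem cell markers 0 passed the threshold in limma (4 at an unadjusted p under 0.05), and their mean log2 level was 13.10 and 13.13 on the knockdown arrays, against 13.11 and 13.10 on the control arrays. Pou5f1, Sox2 and Nanog had log2 fold changes of 0.08, -0.135 and 0.14. The largest rise of the 11 was 0.30 for Klf4 (adjusted p = 0.051, limma). The largest fall was -0.24 for Tfcp2l1 (adjusted p = 0.11, limma). In the other settings with all 4 arrays and no block, 0 to 1 of the 11 were called higher and 0 lower. Of 10 primitive endoderm markers 4 were higher and 0 lower in limma (9 and 0 at an unadjusted p under 0.05), with list means of 10.17 and 10.60 in knockdown cells, against 9.69 and 9.50 in control cells. Gata6, which directs that lineage, rose by 2.115 (SE 0.26, adjusted p = 0.01, limma). Of 10 primed epiblast markers 4 were higher and 0 lower (6 and 1 unadjusted), with list means of 10.11 and 9.83 in knockdown cells, against 9.69 and 9.64 in control cells. The 4 were Foxd3 (log2 fold change 1.085), Lef1 (0.80), Cdh2 (0.455) and Sox4 (0.375). The other 6 did not pass, among them Fgf5 (0.345), Dnmt3b (-0.045) and Zic2 (-0.06). The 1 primed epiblast marker that was lower unadjusted was Otx2 (log2 fold change -0.52, adjusted p = 0.065, limma). Of 12 fibroblast and feeder cell markers 1 was higher and 1 lower, and of 8 neural progenitor markers 1 was higher and 1 lower. The shares called were 40% for primitive endoderm, 40% for primed epiblast, 16.7% for fibroblast and 25% for neural markers. Of all genes 12.2% were called, and 21.96% of those left with dim genes removed. Unadjusted, the shares were 36.4% for stem cell, 90% for primitive endoderm, 70% for primed epiblast, 16.7% for fibroblast and 50% for neural markers. Beside them stood 29.8% of all genes and 38.9% of those left with dim genes removed. The part of these cell states in the change of Lin28a was not tested.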

How the data were processed

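The deposited log2 values cover 35557 probe sets on each of 4 arrays and run from 3.12 to 14.74, with no centring of genes. Per the submitters' processing notes, the authors made them with Affymetrix Expression Console. The log2 scale was inferred from the range of the values. The background step, the summary method and the scaling between arrays are not given in these sources. The platform annotation named the probe sets: 21789 had 1 symbol, 1621 several and 12147 no entry. Sequences came from RefSeq tables of GRCm38.p6, and synonyms there matched Tut4, Tut7 and Tent2. Of the 7 measured listed genes 6 had a promoter entry.

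The groups were set against each other in limma 3.58.1, run in R 4.3.3 (lmFit and eBayes with no covariate, a two-sided test, p-values adjusted by Benjamini-Hochberg across 19938 genes), and SE and intervals are limma's moderated ones. The procedure was also run on simulated data with independent noise on each array, which checks the code and not the calls made here. The genes, the lists and the rules for naming were chosen with earlier results of these data known. The text names the listed genes, a fixed set of regulators, up to 5 called genes per list and the 3 genes closest to each called member. Where a list had 0 called genes, its 2 largest changes were named. Huwe1, Igf2, Mirlet7 genes, uncalled primed epiblast markers and those so marked were added. Alternatives were the replicate block, leaving out each array, quantile normalization, centring on medians, removing dim genes (mean at or under 8.52), averaging the probe sets of a gene and an intensity trend. The number of arrays limits the precision.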

Additional observations from a re-analysis of the deposited data

How the results depend on the processing

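With any 1 array left out, limma called 0 to 0 genes higher, 0 to 0 lower, and of the listed genes 0 to 0 lower. With the replicate block it called 0 genes higher, 0 lower and 0 of the listed genes lower, with 5411 genes at an unadjusted p under 0.05, and the log2 fold change of Lin28a stayed at -0.90. Each of these fits leaves 1 residual degree of freedom. The titles number the replicates, but nothing says that a number pairs samples, and deviations of same-numbered arrays correlated at 0.0885. With all 4 arrays and no block, Lin28a was called lower under each of the 5 other settings, with log2 fold changes from -0.94 to -0.88, and no other listed gene was called. Some values changed sign. Leaving out an array gave -0.13 to 0.11 for Lin28b, -0.215 to 0.055 for Mirlet7c-1, -0.485 to 0.005 for Mirlet7d, -0.025 to 0.095 for Mirlet7e, -0.035 to 0.105 for Mirlet7f-2, -0.095 to 0.185 for Mirlet7a-2 and -0.125 to 0.025 for Mirlet7g. Quantile normalization gave 0.005 for Drosha and -0.01 for Mirlet7f-2, centring on medians gave -0.005 for Mirlet7e and for Mirlet7f-2, and the mean of its probe sets gave -0.02 for Igf2bp1. The cause was not tested, except that for Igf2bp1 the further probe set had the opposite sign. Of the 10 let-7 probe sets, 9 lay below the median of all probe sets, and signal over background is not given in the table.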
